A study of Mus musculus with 3 samples.

Results

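Strict dermal condensate cells are the E16.5 back skin cells that carried at least 1 transcript of at least 4 of 7 condensate genes (Sox2, Sox18, Bmp3, Bmp4, Foxd1, Prdm1 and Rspo3) and no transcript of 4 genes of other lineages (Cdh5 and Pecam1 for endothelium, Ptprc for leukocytes and Trp63 for epithelium). This rule found 161 of the 16235 cells of the series. They were 3.09% of the 5208 cells of the E16.5 library (exact 95% binomial interval 2.64% to 3.60%). The reference was made of 1961 E16.5 cells with at least 3 of 5 upper dermal genes (Wif1, Itih5, Pth1r, Twist2 and Egfl6), none of the same 4 lineage genes and at most 1 of the 7 condensate genes. Of these, 876 had no transcript of Top2a or Mki67, a pair of genes of dividing cells, and served as a non-cycling reference.

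The study pooled back skin of male C57BL/6 mice and made 1 droplet-based 3' single-cell library at each of the stages E13.5 (not compared here), E16.5 and P0. Skin was digested with trypsin at E13.5 and E16.5 and with collagenase IV at P0, so stage, digestion and library cannot be told apart. Transcripts were counted by unique molecular identifiers (UMIs). No test was run, because each stage was a single library and its cells are not replicates, and every interval covers counting error only.

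The dermal condensate is a cluster of mesenchymal cells that gathers under the hair placode and later becomes the dermal papilla of the follicle. Condensate formation is known to depend on Wnt and Fgf signals in the dermis. The study describes hedgehog signalling as believed to act after condensate commitment, when epithelial cells come to surround the papilla. Condensate cells are known to leave the cell cycle early and to signal back to the epithelium through Bmp, Fgf, Wnt and R-spondin ligands. Notch signalling passes between touching cells: a Delta or Jagged ligand on one cell activates a Notch receptor on its neighbour, and Hes and Hey transcriptional repressors are made in response.

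The 7 genes defined the cells, so their values are a description. Among the 161 cells, Bmp4 was found in 135 cells, Rspo3 in 131, Bmp3 in 128, Sox18 in 127, Sox2 in 125, Prdm1 in 118 and Foxd1 in 116. A count of genes found is a range and not a cell type. Of the 3046 E16.5 cells without the lineage genes, 114 carried exactly 3 of the 7 genes and stayed outside, and 36 carried exactly 4 and were taken in. Cells with 5, 6 and 7 genes numbered 48, 43 and 34, so cells with exactly 4 genes were fewer than those with 5 or with 6. Summed Sox2 was 44.8 UMIs per 1000000 UMIs (CPM) in the cells with 3 genes and 134 CPM in those with 4, and Bmp3 was 31.4 against 110 CPM. The condensate cells were shallower than the reference, with a median of 8132 UMIs (3453 to 29814) against 10493, although finding more genes is easier in deeper cells.

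**Figure D1:**
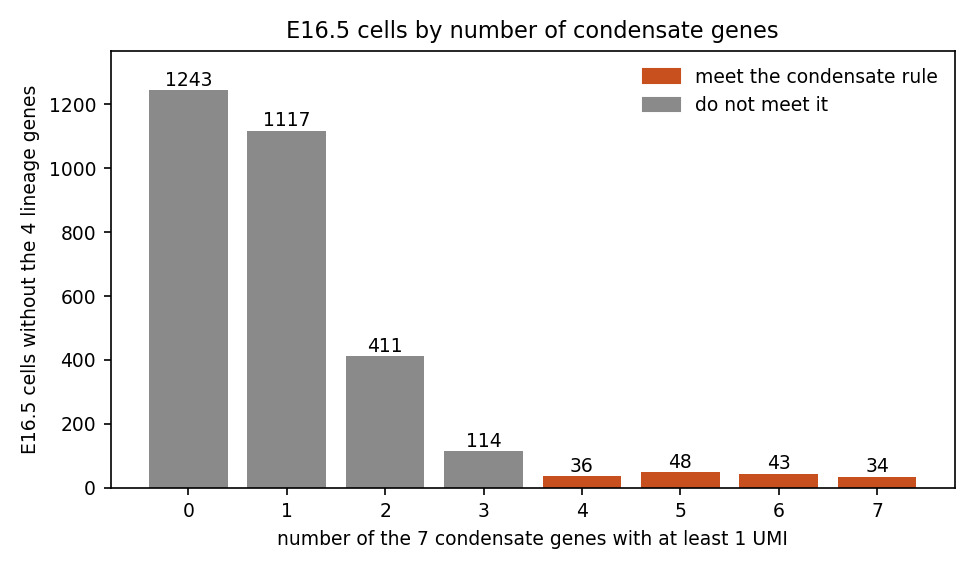
Number of E16.5 cells without Cdh5, Pecam1, Ptprc and Trp63 (vertical axis) by how many of the 7 condensate genes had at least 1 UMI (horizontal axis). Orange bars are the 161 cells that met the rule, 34 of them with all 7 genes, and grey bars are the cells that did not, among them 114 with exactly 3 genes.

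Before any comparison, 2 features of these libraries have to be stated. A nuclear RNA, Malat1 (named here after its values were seen), took 3.67% of all UMIs of the condensate cells and 1.33% of those of the reference. The median cell held 3.72% against 1.28%, and the ranges overlapped (0.37% to 9.92% against 0.02% to 6.74%). By the number of the 7 genes, the share was 1.90% at exactly 3, 2.64% at 4, 3.69% at 5, 4.40% at 6 and 4.14% at 7. The 13 mitochondrial genes differed little, with 2.45% against 2.14% of UMIs. Comparisons were therefore also made in the 73 condensate and 666 reference cells in which Malat1 took 1.5% to 4% of UMIs, a window set after seeing the data. The window narrowed the gap in Malat1 and did not close it, with a median of 2.76% in the condensate and 1.90% in the reference, and the part of Malat1 in the differences below was otherwise not tested. In addition, 42 reference cells and 1 condensate cell held over 5000 CPM in a marker list of another cell type, and values without them are given where they matter. Of the cell barcodes of the condensate cells, 3 also occurred in another library.

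Against the reference, 374 of 11346 genes were at least 2-fold higher in the condensate cells (3.3%) and 315 were at least 2-fold lower (2.78%), with 10 CPM added to both sides. The median gene differed by 0.04 on the log2 scale. Against the non-cycling reference 385 of 9751 genes were at least 2-fold higher (3.95%) and 286 at least 2-fold lower (2.93%). The 18 genes of the rule are left out of these counts. Because the same cells were chosen by related genes, these counts describe the chosen cells and support nothing further.

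**Figure D2:**
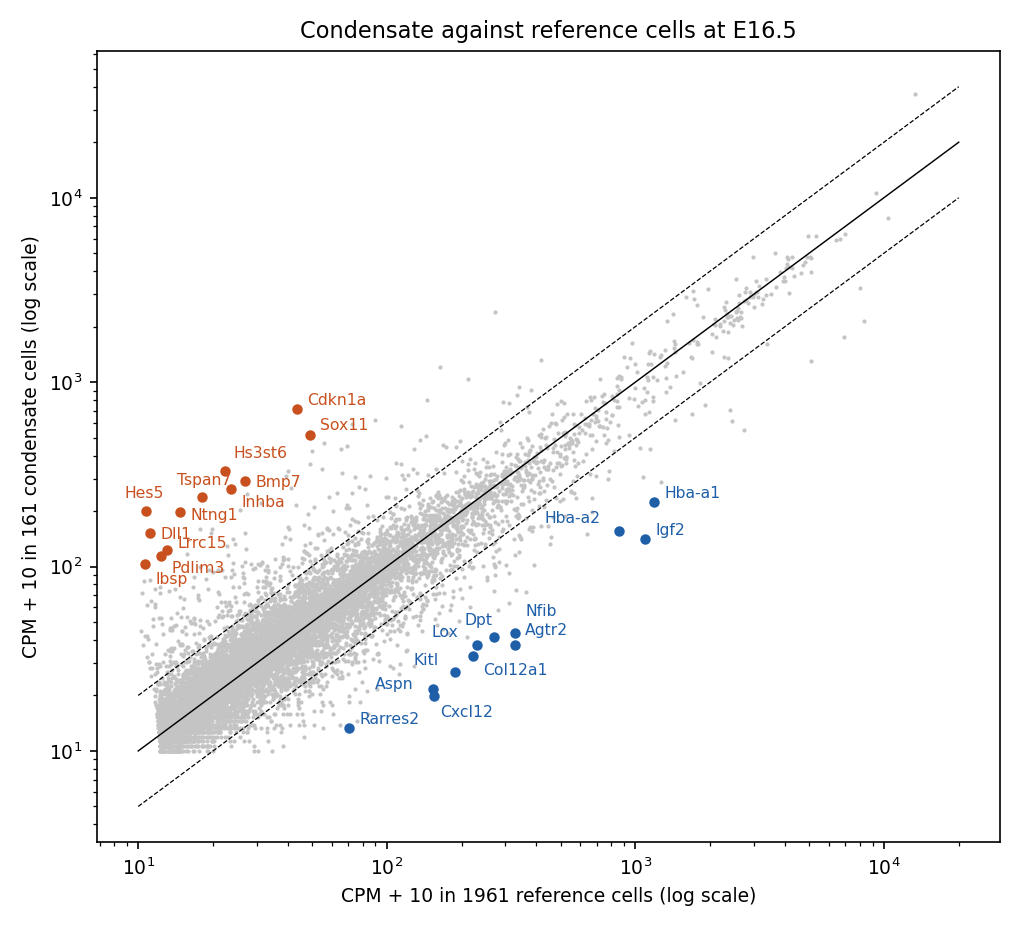
Summed CPM plus 10 of 11346 genes in 1961 reference cells (horizontal log axis) and 161 condensate cells (vertical log axis), 1 grey point per gene, with lines at equality and at 2-fold. The 12 genes with the highest differences (orange) are led by Hes5 and Cdkn1a, and the 12 with the lowest (blue) by Agtr2 and Cxcl12.

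Hes5 and Dll1, both of the Notch pathway, were among the 12 highest genes. Hes5, a repressor made in response to Notch, had the highest difference of all genes named by rank. It was found in 51 of 161 condensate cells with 292 UMIs, and in 16 of 1961 reference cells with 16 UMIs. This gave 190 CPM (169 to 213) against 0.729 CPM (0.417 to 1.18), a log2 difference of 4.22 (4.05 to 4.38). Per cell, Hes5 ran from 0 through a median of 0 to 29.2 UMIs per 10000, so most condensate cells showed none while a minority held many. At an equal depth of 3500 UMIs per cell, 20.6% of condensate cells had a Hes5 UMI (14.6% to 27.7%). The share was 0.051% in the reference, 0.404% in 989 cells with Trp63 (median depth before thinning 12928 UMIs) and 0% of 119 cells with Ptprc.

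Dll1, a Delta ligand, was found in 73 of 161 condensate cells and in 25 of 1961 reference cells. Its summed level was 143 CPM (124 to 163) against 1.14 CPM (0.738 to 1.68), a log2 difference of 3.78 (3.58 to 3.96). A thinned share of 30.6% of condensate cells stood beside 0.84% of Ptprc cells and 6.07% of Trp63 cells. Ligand and response gene were not restricted to separate cells: 28 condensate cells held both, 23 held Hes5 alone, 45 held Dll1 alone and 65 held neither. Absence in a single cell is limited by its depth.

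Of the 15 measured genes of the Notch pathway, 7 were at least 2-fold higher and 0 lower, with a median of 0.75. Heyl and Hey1, further Notch response genes, differed by 3.18 (150 against 7.70 CPM) and 2.23 (83.3 against 9.94 CPM). Lfng, a glycosyltransferase that modifies Notch receptors, differed by 1.64 (40.4 against 6.11 CPM). The receptor Notch1 and the ligand Jag1 stood close to the threshold at 1.07 and 1.02, and stood at 0.56 and 0.20 within the Malat1 window. With at least 3 of the 7 genes as the rule they stood at 0.82 and 0.64. Within the Malat1 window, Hes5 stood at 3.86, Dll1 at 2.99, Heyl at 3.35 and Lfng at 1.64. Hes1, Notch2 and Rbpj, the DNA-binding partner of the receptor, were near the reference at 0.38, -0.06 and -0.12.

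Hes5 lies on the plus strand of chromosome 4 (GRCm38, 154960923 to 154962371), Dll1 on the minus strand of chromosome 17 (15367354 to 15376872) and Lfng on the plus strand of chromosome 5 (140607320 to 140615545). The 250 bases before the RefSeq start of Hes5 and of Lfng (GRCm38.p6, chr4:154960673-154960922 and chr5:140607091-140607340, both plus strand) are shown because each holds GTGGGAA, the core letters bound by RBPJ. Capitals mark GTGGGAA or its reverse complement TTCCCAC.
Hes5: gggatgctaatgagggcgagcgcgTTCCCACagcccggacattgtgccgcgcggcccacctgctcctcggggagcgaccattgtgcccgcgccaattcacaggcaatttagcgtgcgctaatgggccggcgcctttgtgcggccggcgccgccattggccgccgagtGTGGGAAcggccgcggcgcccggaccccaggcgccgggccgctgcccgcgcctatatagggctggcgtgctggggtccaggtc
Lfng: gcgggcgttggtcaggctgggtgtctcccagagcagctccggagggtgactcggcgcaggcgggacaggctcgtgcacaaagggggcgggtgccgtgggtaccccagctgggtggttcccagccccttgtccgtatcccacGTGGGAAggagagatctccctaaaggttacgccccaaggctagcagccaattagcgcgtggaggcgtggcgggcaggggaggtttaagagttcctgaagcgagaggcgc
The Hes5 window holds the letters once in each orientation and the Lfng window holds them once. Searched on both strands, they occurred in 1779 of 32851 such RefSeq windows (5.42%), and in windows of 3 of the 15 Notch list genes that had one (Hes5, Lfng and Hey2). A match is a description of the sequence and not of binding.

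Hedgehog response genes were higher. Ptch1, the hedgehog receptor that is itself induced by the pathway, was found in 135 of 161 condensate cells, at 241 CPM (217 to 267) against 62.8 CPM, a log2 difference of 1.79. The same gene ran from 0 through a median of 1.82 to 9.82 UMIs per 10000 across the condensate cells, against a median of 0 in the reference. Gli1 and Hhip, which also respond to hedgehog, differed by 1.42 and 1.35, the last falling to 0.89 within the Malat1 window. Gas1 and Cdon, coreceptors that are known to be repressed by the pathway, were lower by 1.76 and 1.39 (189 against 662 CPM and 10.4 against 43.7 CPM), and by 0.88 and 0.86 with at least 3 of the 7 genes as the rule. Smo and Gli2 were near the reference at 0.23 and 0.26. In all, 4 of 12 measured hedgehog genes were at least 2-fold higher and 2 lower, with a median of 0.08.

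Wnt genes formed a second group. Of 20 Wnt targets and inhibitors, 7 were at least 2-fold higher and 2 lower (median 0.44). Lef1, a nuclear partner of beta-catenin, was at 296 CPM (269 to 324) against 64.3 CPM, a log2 difference of 2.04. Its relative Tcf7 differed by 1.73 and beta-catenin itself, Ctnnb1, by 1.29. Inhibitors of Wnt signalling were among the higher genes, namely Frzb at 2.54, Notum at 2.21, Nkd2 at 1.43 and Nkd1 at 1.22. Axin2, the most used Wnt response gene, was at 98.3 against 55.1 CPM, a difference of 0.73 that stayed under 2-fold. Sfrp5 and Sp5 were lower at -1.78 and -1.51. Within the Malat1 window, Lef1 stood at 1.44, Notum at 1.45 and Frzb at 2.14, while Nkd1 and Nkd2 stood at 0.60 and 0.78.

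Of 9 measured Wnt ligands, 2 were at least 2-fold higher. Wnt5a, a ligand of the non-canonical branch, was at 205 against 58.9 CPM (1.64). Wnt10a was found in 36 of 161 condensate cells, at 46.2 against 4.28 CPM (1.98), and stood at 0.87 within the Malat1 window. After thinning, 18.7% of Trp63 cells held Wnt10a against 15% of condensate cells, so the epithelium held it as well. Of 16 measured Wnt receptors and R-spondins outside the rule, 0 were higher and 1, Fzd1, was lower.

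Bmp and activin ligands stood out singly rather than as lists. Bmp7 was found in 78.9% of condensate and 14.8% of reference cells, at 282 CPM (256 to 310) against 16.8 CPM (3.44). Inhba, the activin A subunit, was found in 70.8% of condensate cells, with 255 CPM (230 to 281) in the condensate (3.49). Bmp7 ran from 0 through a median of 2.27 to 12.9 UMIs per 10000 and Inhba from 0 through 1.74 to 18.6, both against a reference median of 0. Of 13 measured Bmp ligands and antagonists outside the rule, Bmp7 alone was at least 2-fold higher and 1 was lower. Of 17 measured Tgf-beta and activin genes 2 were higher (Inhba and Ltbp1) and 3 lower. Among 14 Bmp receptors and targets Smad7, an inhibitory Smad, was higher (1.44), Id1 and Id3 differed by 0.37 and 0.61, and Id2 was lower (77.5 against 243 CPM, -1.53).

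Of 17 measured Fgf pathway genes, 5 were at least 2-fold higher. Fgf10, a ligand that signals to epithelium, was at 85.3 against 13.8 CPM (2.00). Feedback genes of Fgf signalling pointed both ways: Spry1, Spred1 and Dusp6 were higher at 1.39, 1.37 and 1.29, and Spry2 was lower at -1.22. Fgfr1 lay at the threshold, with 725 against 357 CPM, and stood at 0.47 within the Malat1 window.

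**Figure D3:**
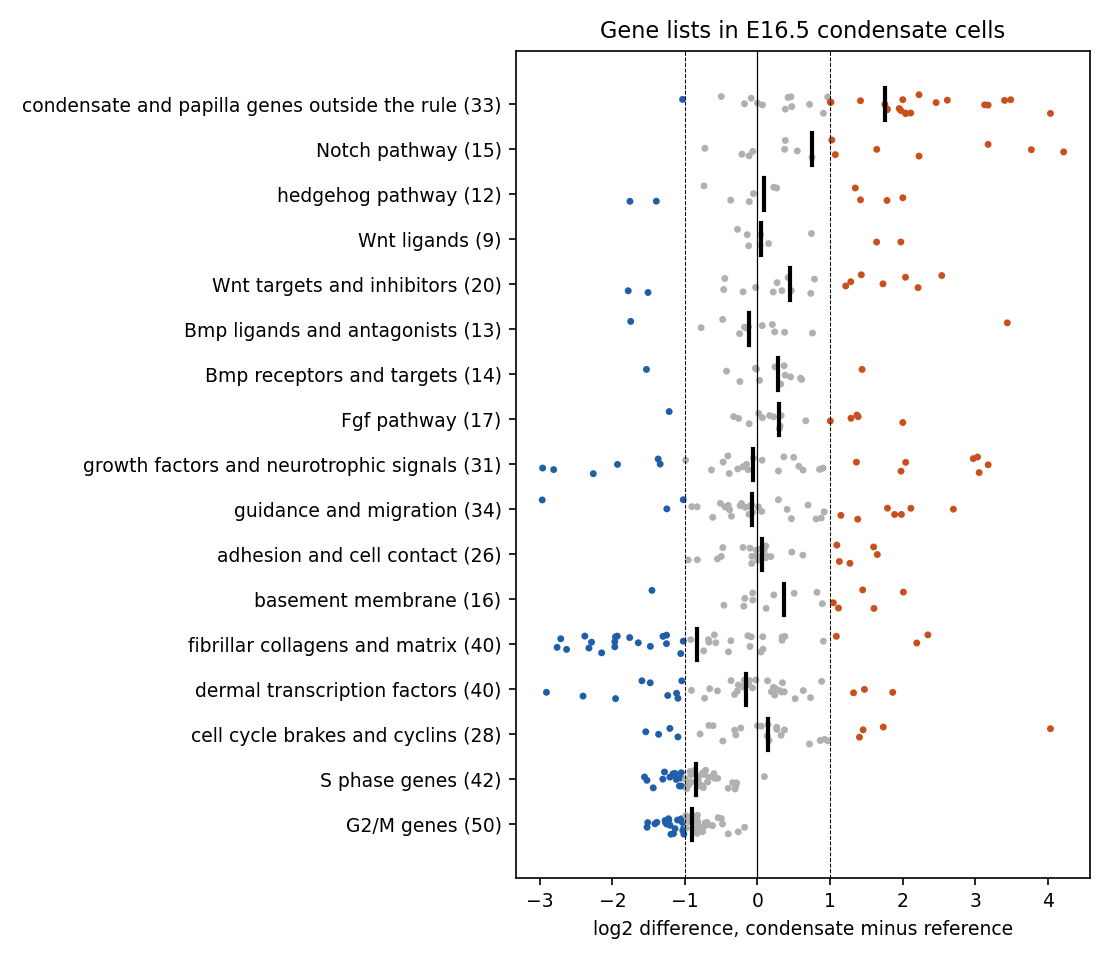
Log2 difference of each measured gene, condensate minus reference (horizontal axis), for 17 gene lists (rows, with the number of measured genes), with orange points at least 2-fold higher, blue points at least 2-fold lower, grey points between, and a black bar at the median of the list. Notch genes have a median of 0.75 and 7 of 15 above 2-fold, and matrix genes have a median of -0.83 and 19 of 40 below it.

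Secreted growth factors split into those that were higher and those that were lower, 7 and 6 of 31 measured genes. Edn3, an endothelin that acts on melanoblasts, was at 238 CPM (214 to 263) against 17.3 CPM (3.18). Igf1 was at 456 CPM (423 to 491) against 46.0 CPM (3.06) and Igf2 at 130 CPM (113 to 150) against 1082 CPM (-2.96). The 2 insulin-like growth factors thus stood on opposite sides, and so did their binding proteins: Igfbp4 and Igfbp3 were higher (3.03 and 2.98), and Igfbp5 and Igfbp2 were lower (-1.93 and -1.34). Igf2 was found in 50.3% of condensate cells and 89.4% of reference cells. Kitl, which attracts melanoblasts through the Kit receptor, was at 16.9 against 179 CPM (-2.81), and Ptn, a heparin-binding factor, at 48.2 against 269 CPM (-2.26, and -0.69 with at least 3 of the 7 genes as the rule). Ngfr and Ntf3, a neurotrophin receptor and ligand, differed by 2.04 and 1.98.

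The chemokine Cxcl12 and its receptor Cxcr4 stood on opposite sides. Cxcl12 was found in 6.21% of condensate cells and 61.1% of reference cells, at 9.77 CPM (5.47 to 16.1) against 145 CPM (-2.97). Cxcr4 was found in 42 of 161 condensate cells and 6 of 1961 reference cells, at 34.5 against 0.274 CPM (2.12). After thinning, 15.6% of condensate cells, 0.809% of Trp63 cells and 0% of Ptprc cells held Cxcr4. Among other guidance receptors Nrp2 was at 440 against 59.1 CPM (2.70), whereas its relative Nrp1 was lower (122 against 258 CPM, -1.02). Sema6a, Unc5b, Epha7, Efnb1 and Robo1 were at least 2-fold higher, which made 7 of 34 measured guidance genes, with 3 lower.

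The extracellular matrix was lower. Of 40 measured matrix genes, 19 were at least 2-fold lower and 3 higher (median -0.83). Col1a1, the major fibrillar collagen of dermis, was found in all 161 condensate cells, at 2125 against 8287 CPM (-1.96). It ran from 1.69 through a median of 14.5 to 83.5 UMIs per 10000 in the condensate cells and from 1.05 through 76.6 to 290 in the reference, so the ranges overlapped while the medians stood far apart. Dcn, Lum and Sparc, a pair of small proteoglycans and a collagen-binding protein, were lower by 2.32, 1.76 and 1.97. Lox, which crosslinks collagen, was at 27.3 against 221 CPM (-2.63), and Dpt and Col12a1, which organise fibrils, differed by -2.71 and -2.76. The matrix genes that went the other way were Fbln2 (569 against 104 CPM, 2.35), Col11a1 (75.5 against 8.66 CPM) and Mfap4 (1.09). Col11a1 was uneven among the condensate cells, as given below.

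Basement membrane genes leaned the other way. Of 16 measured genes, 5 were at least 2-fold higher and 1, Lama4, was lower (-1.45). Lama2, a laminin chain, was at 184 against 38.0 CPM (2.01), Nid1, which links laminin to collagen IV, at 291 against 88.9 CPM (1.61), and Col7a1 at 305 against 105 CPM (1.45). Among 26 adhesion genes 5 were higher and 0 lower, led by Cd44 (1.65), the hyaluronan receptor, and Cdh2 (1.60), the N-cadherin gene. Cdh2 was found in 40 of 161 condensate cells.

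Condensate and papilla genes that were not in the rule were compared as well. Of 33 measured, 20 were at least 2-fold higher and 1, Cntfr, was lower, with a median of 1.76. The list was made of genes known for these cells, so its direction is no independent evidence. Ebf1, a transcription factor, was found in 155 of 161 condensate cells, at 2379 against 262 CPM (3.13), and ran from 0 through a median of 26.7 to 79.1 UMIs per 10000 against a reference median of 1.16. Sox11 and Sox4, a pair of related factors, differed by 3.41 and 2.46, Trps1 by 1.76, Alx4 by 2.11 and Sox9 by 1.98. As sums, other genes of the list were level with the reference, among them Vcan at -0.09, Crabp1 at 0.00 and Fgf7 at 0.07. Crabp1 was uneven among the condensate cells, as given below. General dermal transcription factors leaned the other way, with 3 of 40 higher (Klf4, Glis2 and Runx3) and 9 lower. Nfib, a nuclear factor I gene, was at 33.9 CPM (25.3 to 44.4) against 319 CPM (-2.91), and its relative Nfia differed by -1.96.

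The remaining genes named by rank have varied functions. Hs3st6, a heparan sulphate sulphotransferase, differed by 3.89, Ntng1, a netrin relative, by 3.74, Tspan7, a tetraspanin, by 3.73, and Lrrc15 and Pdlim3 by 3.23 and 3.20. Ibsp, a bone matrix sialoprotein, differed by 3.29, but it was found in 14.9% of condensate cells and a single cell held 24.3% of its 144 UMIs. Among the lowest were Agtr2, an angiotensin receptor (27.3 against 317 CPM, -3.13), Aspn (-2.82) and Rarres2 (-2.41). These genes were at least 2-fold different in the same direction within the Malat1 window. The reference was mixed. With E16.5 cells clustered without the 18 genes of the rule, 532 reference cells fell in a cluster led by Kcnk2. Another 359 fell in a cluster with Cxcl12 among its leading genes. Clusters led by Agtr2 held 171 and 100, and a further cluster with Aspn among its leading genes held 77. The cluster with 94 condensate cells held 44. The part of this mixture in the differences was not tested.

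Cell cycle genes were lower against the full reference. At 3500 UMIs per cell, 33 of 160 condensate cells had a Top2a or Mki67 UMI (20.6%, 14.6% to 27.7%), against 38.1% of reference cells (36.0% to 40.3%). The share was 48.4% at exactly 2 of the 7 genes (43.5% to 53.4%) and 37.7% at 3 (28.8% to 47.3%). It was 25.7% at 4 (12.5% to 43.3%) and 27.1% at 5 (15.3% to 41.8%). At 6 genes it was 14.0% (5.3% to 27.9%) and at 7 genes 14.7% (5.0% to 31.1%). From 4 to 7 genes these intervals overlapped. Without thinning the shares were 34.8% and 55.3%. Of 42 S phase genes 14 were at least 2-fold lower (median -0.85), and of 50 G2/M genes 20 were (median -0.90), with 0 higher in either list. These counts depended on the settings. With at least 3 of the 7 genes as the rule, 2 S phase and 0 G2/M genes were at least 2-fold lower, with at least 5 genes 20 and 36, and with the rule applied after thinning 17 and 42. With 50 CPM added they were 0 and 5, with 1 CPM added 24 and 37, and the medians were below 0 in each of these settings. The non-cycling reference has no Top2a or Mki67 by its making, while 56 condensate cells do. Against it, 0 of 42 measured G2/M genes were lower and 5 were higher. Of 39 measured S phase genes, 5 were lower and 0 were higher against it (median -0.33).

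Cdkn1a, the p21 inhibitor of cyclin-dependent kinases, was found in 87% of condensate cells and 20.6% of reference cells. It was at 705 CPM (663 to 748) against 33.5 CPM (31.1 to 36.0), a log2 difference of 4.04 (3.92 to 4.16). Across the condensate cells it ran from 0 through a median of 3.76 to 51.8 UMIs per 10000. Its level also differed between lineages: 71.2% of condensate cells, 34.5% of Ptprc cells, 10.2% of Trp63 cells and 9.23% of reference cells held it after thinning. Btg1, Gadd45g and Rb1, further brakes on division, were higher at 1.46, 1.73 and 1.41, so that 4 of 28 measured brakes and cyclins were higher and 4 lower (Cdkn2c, Ccne1, Ccne2 and Cdk6).

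Cdkn1c, the p57 inhibitor, behaved differently. Its sum was higher in the condensate cells (3203 against 1943 CPM, 0.72), yet its median cell was lower (6.34 against 9.34 UMIs per 10000). By the number of the 7 genes, the level was 1747 CPM at 4 of the 7 genes, 1477 CPM at 5, 4887 CPM at 6 and 5510 CPM at 7. Condensate cells with a Top2a or Mki67 UMI held 1833 CPM of Cdkn1c and those without held 4195 CPM. The former had medians of 9905.5 UMIs and 5 of the 7 genes, and the latter 7713 UMIs and 6 genes. Hes5 differed in the same direction between these cells (69.8 against 277 CPM, -1.85), whereas Cdkn1a differed by -0.26.

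Other genes also changed along the number of the 7 genes. Dll1 stood at 12.6 CPM at 3 genes, 36.6 at 4, 107 at 5, 213 at 6 and 247 at 7, and Inhba at 58.9, 46.4, 221, 423 and 374 CPM. Cells with 4 genes were thus nearer to those with 3 than to those with 6 in both ligands. Col1a1 stood at 4564 CPM at 3 genes and then at 3108, 2093, 1682 and 1416 CPM. Twist2, a factor of early dermis and a gene of the reference rule, was at 1210 CPM at 4 genes and 504 CPM at 7. These steps share the genes that define them and their depth, so they are a description.

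**Figure D4:**
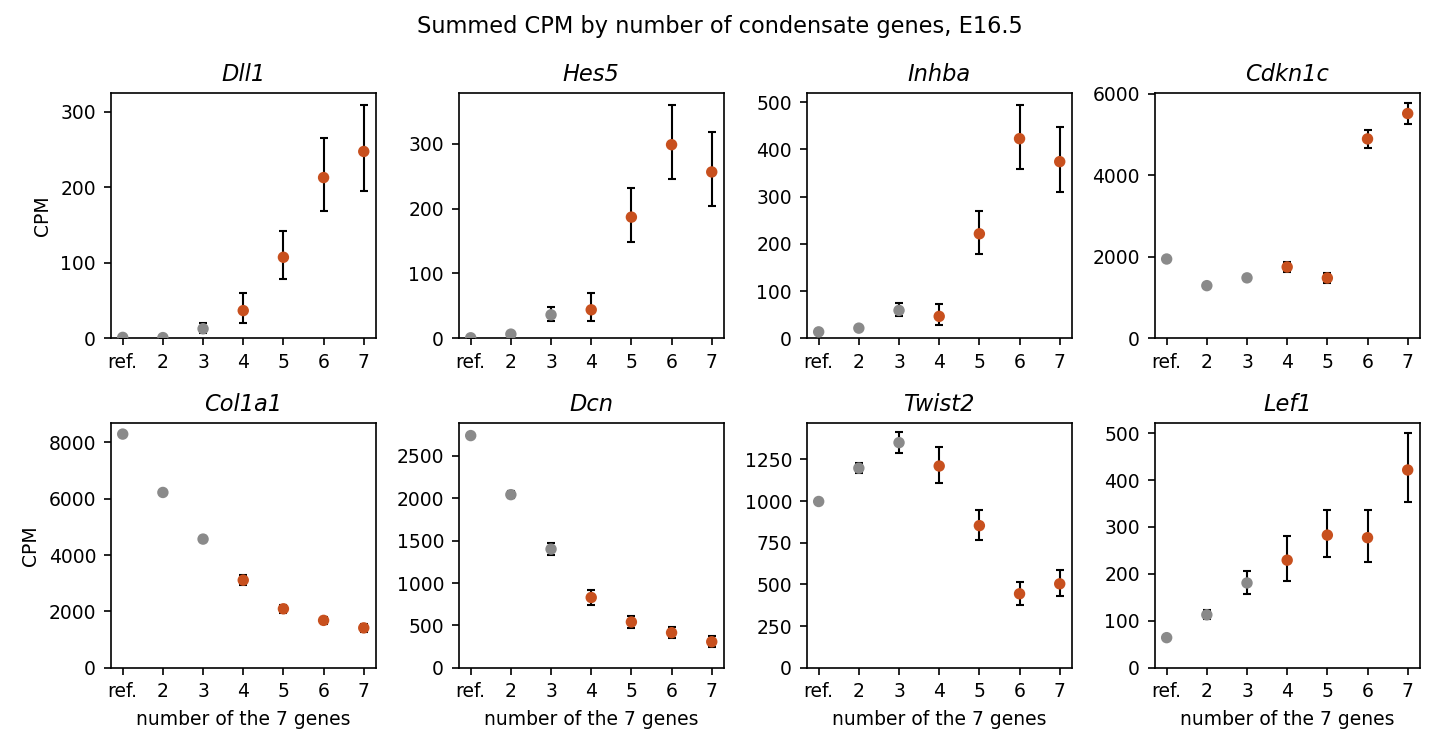
Summed CPM (vertical axes, starting at 0, with exact 95% Poisson intervals) of 8 genes in the reference and in E16.5 cells by number of the 7 condensate genes (horizontal axes), with orange points for cells that met the rule. Dll1 goes from 12.6 CPM at 3 genes to 247 CPM at 7, while Col1a1 goes from 4564 to 1416 CPM.

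The condensate cells were not uniform. When the E16.5 cells were clustered without the 18 genes of the rule, 94 condensate cells fell in 1 cluster of 300 cells and 56 in another of 74 cells, and the other 11 were spread over 5 clusters. In the smaller group the median cell carried 6 of the 7 genes and 7110 UMIs, and in the larger group 5 genes and 9080 UMIs. The clustering could use any gene outside the rule, so the values that follow are a description. The smaller group held more Dll1 (283 against 91.5 CPM) and Wnt10a (124 against 15.2 CPM). It also held more Notum (159 against 17.4 CPM), Lrrc15 (320 against 30.5 CPM) and Col11a1 (214 against 24.0 CPM). It held less Cdkn1c (1468 against 4468 CPM), Cdkn1a (366 against 967 CPM) and Eln (25.3 against 210 CPM). Twist2, a gene of the rule that the clustering left out, was also lower in the smaller group (186 against 917 CPM). Dkk1, a Wnt inhibitor, had 50 UMIs in the larger group and 0 in the smaller. Crabp1, level with the reference as a sum, was at 283 CPM in the smaller group and 1939 CPM in the larger. The reference held 1440 CPM of Crabp1. Malat1 took 5.47% of UMIs in the smaller group and 3.20% in the larger, and the 111 ribosomal protein genes took 18.7% and 24.6%. The part of either in these differences was not tested.

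The condensate cells were also split by whether Hes5 or Dll1 was found. The 51 condensate cells with Hes5 held more Heyl (303 against 85.4 CPM, 1.71) and Hey1 (166 against 48.3 CPM, 1.59) than the 110 without it, and more Ibsp (238 against 32.5 CPM, 2.54). Their Notch1 differed by 0.51 (-0.04 to 1.04) and their Hes1 by 0.50 (-0.06 to 1.04). The 73 cells with Dll1 held more Wnt10a (95.3 against 11.2 CPM, 2.31), Notum (106 against 24.6 CPM, 1.75) and Col14a1 (150 against 27.9 CPM, 2.08) than the 88 without it, and less Dkk1 (6.25 against 69.2 CPM, -2.29). Their Heyl differed by 0.23 (-0.13 to 0.59) and their Hes1 by 1.14 (0.60 to 1.67). Cdkn1c was higher with either gene, at 3735 against 2977 CPM in the Hes5 split and 4092 against 2567 CPM in the Dll1 split, whereas the smaller cluster group, which held more Dll1, held less Cdkn1c. Depth had medians of 7564 and 8481 UMIs in the Hes5 split and 7540 and 8968 UMIs in the Dll1 split. In both splits the median cell with the gene carried 6 of the 7 genes of the rule and the median cell without it 5. The part of this number in the differences was not tested.

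Markers of other cell types were measured in the same cells. Epithelial markers had a median of 881 CPM per condensate cell (109 to 2606) and 718 per reference cell, with 0 of 15 measured genes 2-fold different. The 13 immune markers summed to 86.0 against 111 CPM, with 0 of 11 measured genes 2-fold different (3 of 13 higher with the rule applied after thinning), a median of 0 CPM in the condensate cells and 1 cell at 9557 CPM. Endothelial markers summed to 135 against 70.4 CPM, with 2 of 9 measured genes higher, the Vegf receptor genes Flt1 (61.9 against 2.19 CPM, 2.56) and Kdr (22.8 against 3.37 CPM, 1.29). Tek was at 0 and Emcn and Tie1 had 3.26 CPM each, besides Cdh5 and Pecam1, which the rule set to 0. Flt1 stood at 2.58 within the Malat1 window. Of 9 neural markers Stmn2 was higher, at 1031 against 203 CPM (2.29), with Nefl and Nefm at 0 and Gap43 at -0.78. The muscle genes Myod1, Pax7 and Myf5 were at 0, and 0 of 6 measured muscle, 0 of 10 measured Schwann and melanocyte and 0 of 1 measured Merkel cell genes differed 2-fold. Of 9 measured pericyte and smooth muscle genes 3 were lower (Rgs5, Acta2 and Kcnj8), with a median of 0 CPM per cell in both groups and highest cells at 619 and 21973 CPM. Of 7 measured adipocyte lineage genes 2 were lower (Pparg and Lpl). Of 26 genes that respond to tissue dissociation 3 were higher (Klf4, Ier2 and Ier5) and 1, Jun, was lower, and their sum was 5029 against 5039 CPM.

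Globin genes need a separate statement. Of 7 measured erythroid genes 4 were lower, and Hba-a2 and Hba-a1 were among the 12 lowest genes, at 146 against 850 CPM (-2.46) and 213 against 1177 CPM (-2.41). Per cell, the 8 erythroid markers summed to a median of 1136 CPM in the condensate and 1057 CPM in the reference, with highest cells at 2298 and 727377 CPM. Without the cells that held over 5000 CPM of another type's markers, the differences were 0.12 and 0.01.

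At P0, 124 of 5065 cells met the same rule (2.45%, 2.04% to 2.91%), and at E13.5 3 of 5962 did. Against 1861 P0 reference cells, 608 of 10036 genes were at least 2-fold higher in the P0 cells (6.06%) and 297 at least 2-fold lower (2.96%). Of 9848 genes measured at both stages, 345 were at least 2-fold higher at E16.5 and 587 at P0, with 228 in both (66.1% of the first and 38.8% of the second). Of 306 and 287 lower genes, 151 were in both (49.3% and 52.6%). Each stage was set against its own reference, and the difference between stages was not tested. Malat1 took 4.47% of UMIs in the P0 cells and 1.97% in their reference, and dissociation response genes summed to 12954 and 8793 CPM.

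Notch and secreted genes were found at both stages. At P0 Hes5 was at 86.7 against 1.32 CPM in the reference, and Dll1 at 135 against 1.32 CPM, differences of 3.09 and 3.68. Bmp7 and Inhba differed from the reference by 3.44 and 3.49 at E16.5 and by 4.98 and 4.95 at P0. Col1a1 and Dcn were lower at both, by 1.96 and 2.32 at E16.5 and by 2.31 and 2.21 at P0. Genes with a difference at P0 and little in the E16.5 sum included the Bmp relative Gdf10 (4.65 and -0.18) and Fgf7 (1.86 and 0.07). Rspo1 differed by 3.98 at P0 and by 0.44 at E16.5, where it was uneven. It was at 292 CPM in the smaller cluster group of condensate cells and at 33.8 CPM in the larger. Genes with a difference at E16.5 and little at P0 included Ngfr (2.04 and 0.15) and Sox9 (1.98 and 0.49). Jag1 differed by 1.02 and 3.04. Kitl differed by -2.81 and -0.39, and its reference level was itself 179 CPM in the earlier library and 14.4 CPM in the later one.

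**Figure D5:**
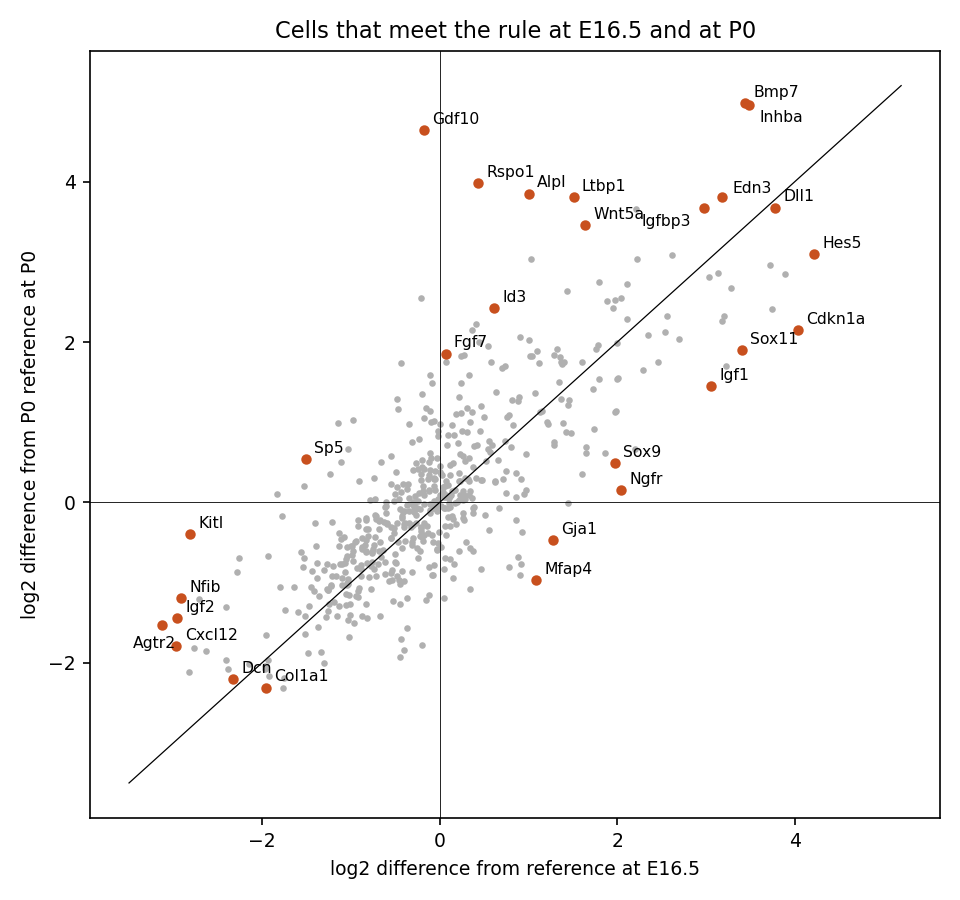
Log2 difference from the reference at E16.5 (horizontal axis) and from the P0 reference at P0 (vertical axis) for measured genes of the lists and genes named by rank, without the erythroid list, with a line at equality. Labelled genes are orange, and Bmp7 and Inhba lie near 3.4 and 5.0 while Ngfr lies at 2.04 and 0.15.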

How the data were processed

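Back skin libraries of E13.5, E16.5 and P0 held 5962, 5208 and 5065 cells with 53334740, 66239195 and 46599806 UMIs. The authors aligned reads to mm10 and counted UMIs with Cell Ranger (2.2.0 in the submitters' processing notes), kept cells with at least 1750 genes, and deposited the natural log of 1 plus UMIs per 10000 UMIs of a cell. All 48197283 values above 0 gave whole UMIs within 0.001, so these were used. Each library held more cells than the study counts after its own filters, and all were used.

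The members, the reference and the 30 gene lists were chosen with earlier results of these data known. UMIs were summed per group and scaled to CPM. Differences are log2 of CPM plus 10, for genes with at least 50 UMIs over both groups, with 95% intervals joined from exact Poisson intervals, and "at least 2-fold" is a log2 difference of 1 or more. Shares have exact binomial intervals, at 3500 UMIs per cell where thinned. Genes were named if listed or among the 12 highest and 12 lowest differences (6 and 6 against the non-cycling reference) with a UMI in at least 10% of the cells of the higher group. Clustering used scanpy 1.11.5 with 2000 variable genes, 30 components, 15 neighbours and resolution 1. Scrublet at an expected rate of 0.06 called 84 doublets (1.61%), 2 of them condensate cells, which were kept. Positions are from GENCODE vM21. Python 3.11.15 and numpy 2.4.6 were used.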

Additional observations from a re-analysis of the deposited data

Results flagged for a closer look

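Globin genes were looked at again because their difference between condensate and reference cells was lower at E16.5 and higher at P0. At P0 the log2 differences were 2.45 for Hba-a2, 2.26 for Hba-a1, 2.66 for Hbb-bs and 3.01 for Hbb-bt, and at E16.5 they were -2.46, -2.41, -1.99 and -2.10. The difference between stages was not tested. The median cell held similar erythroid marker sums in both groups at both stages, 1136 and 1057 CPM at E16.5 and 383 and 338 CPM at P0, while the highest cell reached 727377 CPM in the E16.5 reference and 409450 CPM among the P0 cells that met the rule.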

How the results depend on the processing

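No paired analysis was possible because each stage had 1 library, and no replicate could be left out for the same reason. The rule set the number of condensate cells: 275 with at least 3 genes, 125 with at least 5, 113 after thinning to 3500 UMIs, 122 with 0 also asked for Sox10, Kdr, Rgs5 and Epcam, and 73 with Malat1 at 1.5% to 4% of UMIs, the last chosen after seeing the data. With at least 3 genes, 99 genes were at least 2-fold lower than in the reference and 122 than in the non-cycling reference. After thinning 489 were lower than in the reference. With 1 CPM added, 857 genes were higher and 996 lower than in the reference, and 778 and 623 than in the non-cycling reference. With 50 CPM added these counts were 122, 99, 126 and 98. Within this Malat1 window, 242 genes were higher than in the reference and 246 than in the non-cycling reference, out of 9317 and 6817 measured with fewer cells. Of the named genes at least 2-fold different, 64 were followed over 13 other settings, namely those named by rank and a picked set of others. Of these 64, 42 stayed at least 2-fold different in the same direction in all 13 settings and 2 changed sign. Col1a1, Dcn and Cxcr4 were among the named genes not followed. With 50 CPM added, low genes dropped under 2-fold, among them Lfng (0.69), Gli1 (0.86) and Notum (0.99). Over these settings 4 to 9 Notch genes were higher, 14 to 24 condensate and papilla genes were higher, and 14 to 22 matrix, 0 to 24 S phase and 0 to 42 G2/M genes were lower. Cycling shares were 27.7% with at least 3 genes and 34.8% unthinned. Hba-a2 and Hba-a1 went to 0.12 and 0.014 without cells of other types, an alternative also chosen after seeing the data. Centring, equal cell weights, doublets, a minimum of genes per cell, a broader reference and lower UMI minimums left each count within 1.5 times. Beside the causes that a setting builds in, the cause was not tested.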
